A study of Mus musculus with 4 samples.

Results

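The receptors by which brain-resident myeloid cells bind antibody were followed here at the RNA level, together with the signalling chain and kinase that they share. The set holds 7 genes, chosen by symbol: the activating Fcγ receptors Fcgr1, Fcgr3 and Fcgr4, the inhibitory receptor Fcgr2b, the shared γ chain Fcer1g, the neonatal Fc receptor Fcgrt and the kinase Syk. All 7 were found among the 28692 genes of the count tables. The 4 libraries are single-cell 3′ RNA-seq of sorted myeloid cells from cortex and hippocampus of male C57BL/6J mice at postnatal day 90, made by Dounce homogenisation in the cold. Every mouse had received PBS through the tail vein before it was killed, and no genotype, allele or other agent separates the libraries, so that the libraries form 1 group of 4 and no treatment can be compared. The mice were the control arm of another experiment, and the time from injection to sacrifice is given as 24 h by the labels and as 18 h by the methods. Before sorting, all suspensions were incubated with an antibody to CD16/CD32, the proteins of Fcgr3 and Fcgr2b, to block Fc binding, and cells were sorted on CD45 and CD11b. Whether CX3CR1 was also a gate differs between the sources. Fcgr3 is on the list of microglial identity genes that the study used, so that its high level in cells called microglia is not an independent finding.

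Activating Fcγ receptors bind the constant part of IgG and pass the signal to an immunoreceptor tyrosine-based activation motif (ITAM). For Fcgr1, Fcgr3 and Fcgr4 in the mouse that motif sits on the γ chain encoded by Fcer1g. Src-family kinases phosphorylate it, and the kinase Syk docks on the phosphorylated motif and starts phagocytosis and cytokine release. Fcgr2b carries an inhibitory motif in its own tail and recruits the phosphatase SHIP1, encoded by Inpp5d, which acts against the same signal. Fcgrt encodes the heavy chain of FcRn, an intracellular receptor that pairs with β2-microglobulin, encoded by B2m, and rescues IgG from degradation. Interferon γ and type I interferon are known to induce Fcgr1 and Fcgr4 in macrophages. Microglia are known to express most of these genes, and the ratio of activating to inhibitory receptors is a common way to describe how readily a myeloid cell answers antibody.

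The genes lie on 4 chromosomes (GRCm38, GENCODE M21 annotation). Fcgr2b (chr1:170958617-170976547, minus strand), Fcgr4 (chr1:171018920-171029761, plus strand), Fcgr3 (chr1:171051174-171064935, minus strand) and Fcer1g (chr1:171229572-171234365, minus strand) share a stretch of 276 kb of chromosome 1. Fcgr1 (chr3:96282909-96293969, minus strand), Fcgrt (chr7:45092990-45103851, minus strand) and Syk (chr13:52583173-52648792, plus strand) lie apart. The Fcγ receptors resemble each other in their extracellular parts, and reads of 98 bases were counted at the 3′ end of transcripts. Of all 98-base words in the last 500 bases of the members' transcripts, 0 were shared with another gene. Fcgr2b overlaps the antisense gene Gm38204, which had 0 UMIs in all 4 libraries.

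The promoters of Fcgr1, Fcgr4 and Fcgr3 are shown because the first 2 genes were higher in the cells with interferon-induced RNAs described further on, and Fcgr3 was not. Each holds 250 bases before and 50 bases after the first base of a RefSeq transcript (GRCm38.p6), read 5′ to 3′ on the gene's strand. The windows are chr3:96293920-96294219 for Fcgr1, chr1:171018676-171018975 for Fcgr4 and chr1:171059354-171059653 for Fcgr3. Capitals mark matches to 3 motifs searched on both strands. These are the interferon γ-activated site (GAS), searched as TTCNNNGAA, the core of the interferon-stimulated response element (ISRE), searched as GAAA followed after any 2 bases by GAAA again, and the core of the PU.1 site, searched as GAGGAA, which reads TTCCTC on the other strand.
Fcgr1: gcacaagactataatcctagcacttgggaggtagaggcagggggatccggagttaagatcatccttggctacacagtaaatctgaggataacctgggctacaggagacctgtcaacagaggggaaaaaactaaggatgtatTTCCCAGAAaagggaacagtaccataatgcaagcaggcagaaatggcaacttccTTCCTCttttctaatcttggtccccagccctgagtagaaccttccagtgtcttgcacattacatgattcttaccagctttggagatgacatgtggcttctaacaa
Fcgr4: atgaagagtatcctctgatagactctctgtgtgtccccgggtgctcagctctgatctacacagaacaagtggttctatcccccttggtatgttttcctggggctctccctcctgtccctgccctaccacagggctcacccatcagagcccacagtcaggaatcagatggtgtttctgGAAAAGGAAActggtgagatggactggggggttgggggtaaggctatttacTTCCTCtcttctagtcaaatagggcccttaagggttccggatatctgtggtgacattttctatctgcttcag
Fcgr3: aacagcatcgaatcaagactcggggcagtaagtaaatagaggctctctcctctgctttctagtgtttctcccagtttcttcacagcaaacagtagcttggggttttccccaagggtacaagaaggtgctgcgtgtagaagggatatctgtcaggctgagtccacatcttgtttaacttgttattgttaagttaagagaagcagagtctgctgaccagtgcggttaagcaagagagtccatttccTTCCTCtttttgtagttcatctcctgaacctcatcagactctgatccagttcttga
The Fcgr1 window held a GAS match from base -109 to -101 and a PU.1 core from -55 to -50, counted from the transcript start. The Fcgr4 window held an ISRE core from -73 to -64 and a PU.1 core from -22 to -17, and no GAS. The Fcgr3 window held only a PU.1 core, from -6 to -1. Over the 9 RefSeq promoters of the 7 genes, GAS was found in 1 gene, the ISRE core in 1 and the PU.1 core in 4 (Fcgr1, Fcgr3, Fcgr4 and Syk), and Fcgr2b, Fcer1g and Fcgrt had no match. Among all 32851 promoter windows of this length, 8.30% held GAS, 3.44% the ISRE core and 28.3% the PU.1 core. None of the motif matches overlapped, and a match says only that these letters are present.

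After removal of cells with fewer than 400 genes or more than 10% mitochondrial UMIs (unique molecular identifiers, each standing for 1 captured RNA molecule), 13002 cells remained, 2576 to 3692 per library, with 5841671 to 11267195 UMIs per library and medians of 1905 to 2936 UMIs per cell. Libraries shared 6 to 21 cell barcodes per pair. The 10 microglia markers summed to 41041 to 42076 counts per 1000000 UMIs (CPM) in every library. The 8 border macrophage markers summed to 13.6 to 82.1 CPM, lowest in replicate 1 and highest in replicate 4, and the 8 monocyte markers to 12.9 to 51.1 CPM. Of 6 neutrophil and 7 lymphoid markers, 5 and 4 were at 0 in all libraries. Replicate 4 stood apart from the others in the summed level of 8 immediate-early genes, with 1888 CPM against 697, 804 and 679 CPM in replicates 1 to 3. The study describes a sorter clog, with added time at room temperature, for the final mouse, which it calls sample 4, and the labels used here do not carry that number. Tested differences of members are given without replicate 4 where that changed a call, and for some others whose value moved by over 1.5 times. A value given without such a figure is not thereby shown to be stable.

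The γ chain and the low-affinity activating receptor led the set. Fcer1g was at 3248, 3464, 3222 and 3276 CPM in replicates 1 to 4 (3302 ± 110, SD, n = 4), and was the 21st most abundant of 15581 genes detected. Fcgr3, which binds IgG immune complexes with low affinity, was at 2061, 2372, 2138 and 2064 CPM (2159 ± 147) and ranked 37th. For both genes replicate 2 was highest, and the other 3 libraries lay close together. In 3′ libraries each captured transcript is counted once whatever its length. How well each gene's transcripts were captured was not measured, so that comparisons between genes are of UMIs and not of RNA molecules in the cell.

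The other activating receptors were lower. Fcgr1, the high-affinity receptor for monomeric IgG, was at 591, 552, 521 and 472 CPM in replicates 1 to 4 (534 ± 50, n = 4). Fcgr4, a receptor of intermediate affinity found mainly on monocytes, macrophages and neutrophils, was at 31.9, 28.2, 14.6 and 21.1 CPM (23.9 ± 7.7). Fcgr4 was thus the least abundant of the 7 genes and the one that varied most, its highest library being 2.19 times its lowest. In cells without macrophage or monocyte markers it was at 30.4, 28.1, 14.2 and 21.1 CPM, so that this spread between libraries was as large without them. The next most variable members were Fcgr1 at 1.25 times and Syk at 1.24 times.

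The inhibitory receptor was the steadiest member. Fcgr2b was at 301, 313, 303 and 299 CPM (304 ± 6.2, n = 4), a highest to lowest ratio of 1.05. Fcgrt was at 132, 139, 133 and 131 CPM (134 ± 3.4), and Syk at 65.6, 64.8, 58.5 and 53.0 CPM (60.5 ± 5.9). In both Fcgr2b and Fcgrt all libraries agreed within counting error, with 0 of 6 library pairs having separate exact 95% Poisson intervals. Of those 6 pairs, 5 had separate intervals for Fcgr1, Fcgr3 and Fcgr4, 3 for Fcer1g and 2 for Syk.

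No member had a library that stood apart by Dixon's range test on log2(CPM + 1), 0 of 7, against a background of 4.62% of the 7656 genes at 10 CPM or more. The median SD over libraries was 0.095 log2 units for the members and 0.11 for those 7656 genes. In the order of levels (Fcer1g, Fcgr3, Fcgr1, Fcgr2b, Fcgrt, Syk, Fcgr4), neighbours differed 1.53 to 4.04 times and the libraries of no 2 neighbours overlapped. The 4 Fcγ receptors together came to 3020 ± 173 CPM.

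**Figure D1:**
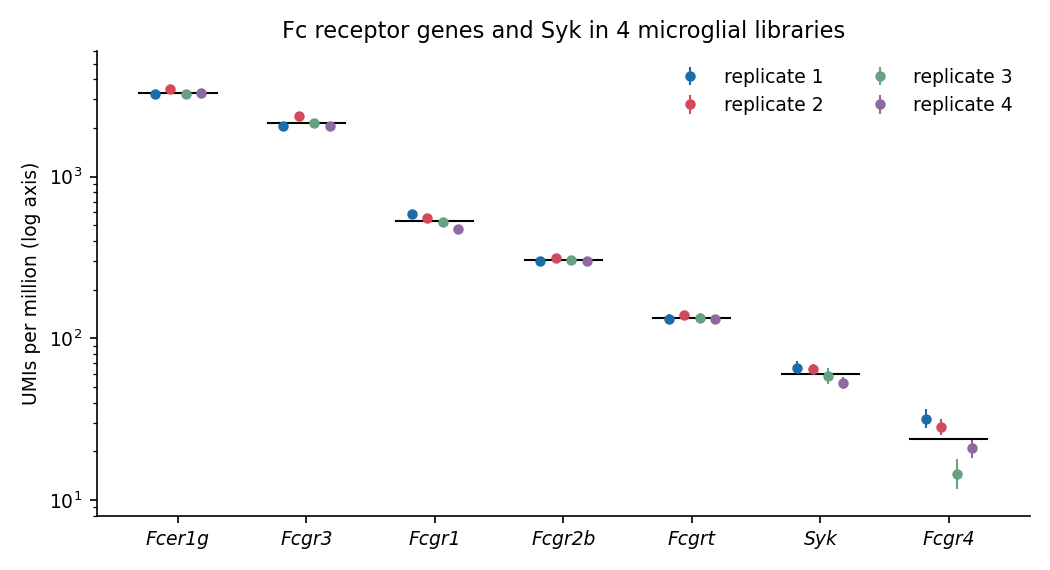
Level of each member in each library, in CPM on a log axis. Points are the 4 libraries with exact 95% Poisson intervals and black bars are the means. Fcer1g and Fcgr3 lead at 3302 and 2159 CPM, Fcgr4 is last at 23.9 CPM, and no 2 neighbouring genes overlap.

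How many cells had a UMI of a member followed from these levels and from depth. With each cell thinned to 1000 UMIs (12737 cells with at least as many), 95.5% ± 0.90 of cells had a UMI of Fcer1g and 86.7% ± 2.0 of Fcgr3 (mean ± SD, n = 4 libraries). Shares were 41.0% ± 2.5 for Fcgr1, 25.7% ± 0.56 for Fcgr2b, 12.3% ± 0.34 for Fcgrt, 5.69% ± 0.59 for Syk and 2.29% ± 0.85 for Fcgr4. Without thinning they were 99.5%, 97.9%, 70.7%, 51.1%, 27.8%, 13.9% and 5.47% in the same order, so that 4 members in place of 2 were seen in more than 50% of cells.

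The thinned shares lay close to those that Poisson counting at each gene's mean level would give. That expectation was 96.2% for Fcer1g, 88.4% for Fcgr3, 41.6% for Fcgr1, 26.3% for Fcgr2b, 5.76% for Syk and 2.36% for Fcgr4. The variance of the UMIs per cell was 1.02 to 1.13 times the mean for the members, and the median of 1473 genes detected in at least 10% of cells was 1.02 times. A cell without a UMI of Fcgr2b is therefore not shown to lack its RNA at this depth. The libraries hold no cell type in numbers that should lack Fc receptors, and the share of UMIs from free RNA could not be read from one.

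Activating receptors outnumbered the inhibitory one in UMIs in every mouse. For each UMI of Fcgr2b there were 8.91, 9.43, 8.81 and 8.55 UMIs of Fcgr1, Fcgr3 and Fcgr4 in replicates 1 to 4 (8.93 ± 0.37). Fcgr3 made up 79.5% ± 1.8 of the activating UMIs, Fcgr1 19.7% ± 1.6 and Fcgr4 0.88% ± 0.27. With Fcgr3 as the only activating receptor, the ratio to Fcgr2b was 6.84, 7.58, 7.05 and 6.91 (7.09 ± 0.34). Replicate 2 was highest on both counts, and for the full ratio its 95% interval (9.11 to 9.77) lay above that of replicate 4 (8.22 to 8.91).

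The shared chains were also set against their partners. Fcer1g had 1.22 ± 0.046 UMIs for each UMI of an activating receptor, and 0.943 ± 0.0038 for each UMI of Tyrobp, the other ITAM adaptor of microglia (DAP12). B2m, the light chain of FcRn, had 26.9, 24.3, 24.5 and 24.5 UMIs for each UMI of Fcgrt. Syk was scarce beside the chain it docks on, with 55.0 ± 5.1 UMIs of Fcer1g for each of Syk. The phosphatases Inpp5d and Ptpn6 together had 10.7 ± 0.76 UMIs for each of Syk.

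Within single cells the receptor classes were not seen to exclude or to favour each other. At 1000 UMIs, 23.8% ± 0.65 of cells had UMIs of both an activating receptor and Fcgr2b, and independent counting would give 23.8%. A further 68.7% ± 0.82 had an activating receptor only, 1.95% ± 0.40 had Fcgr2b only and 5.56% ± 1.0 had neither. The correlation of any 2 members across cells, as a mean over the 4 libraries, was between -0.028 and 0.029.

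By likeness across cells, the genes nearest to Fcer1g were Cst3, which encodes cystatin C (mean r = 0.13), the complement gene C1qb and Itm2b. Cst3 was also nearest to Fcgr3 (0.087), followed by C1qb and C1qc. The list for Fcgr1 was Lgmn (0.045), Rrbp1 and C1qa, that for Fcgr4 Lyz2 (0.054), Apoe and Tmsb10, and that for Fcgr2b Ctss (0.035), Clec4a3 and Ywhae. For Fcgrt they were Atp5c1 (0.028), Cmtm6 and Krit1, and for Syk Rpl37a (0.029), Ly96 and Inpp5d. These values are the mean of 4 within-library Pearson correlations over 2491 to 3669 cells at equal depth. They are all weak, in sparse counts of cells that share a library, and no order beyond the counts can be read from them.

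Around the members, most genes of ITAM signalling were detected and most other Fc receptor, Fc receptor-like and related genes were near 0. Of 57 further genes in 7 lists, 39 were at 10 CPM or more, 13 were under 1 CPM and 5 of those were at 0 in all libraries (Fcer1a, Ms4a2, Fcmr, Fcamr and Zap70). Of 12 other Fc receptor, Fc receptor-like and related genes only 2 reached 10 CPM. These were Fcrls, an Fc receptor-like gene typical of microglia, at 2815 ± 154 CPM and Fcrl1, also Fc receptor-like, at 67.2 ± 7.6 CPM. Their place on this list rests on their names, and binding of antibody by their products was not examined. Among the Src-family kinases that phosphorylate ITAMs, Lyn was at 486 ± 1.9 CPM, while Fgr was at 3.6 ± 1.2 CPM. The brakes Inpp5d and Ptpn6 were at 349 ± 13 and 292 ± 12 CPM. Downstream of Syk, the adaptor Blnk was at 212 ± 8.2, the exchange factor Vav1 at 184 ± 14, the kinase Btk at 65.9 ± 1.2 and the phospholipase Plcg2 at 59.1 ± 6.1 CPM.

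Cell states were next compared within each mouse. A cell was placed in a state when, after thinning to 1000 UMIs, it held at least 3 UMIs of that state's list of genes, and its full counts were summed per library and tested against the summed other cells of the same library with edgeR's quasi-likelihood test, with the library as a block. The genes of the list were left out of the test, so that no tested gene chose the cells, and genes with an adjusted p under 0.05 (Benjamini-Hochberg over all genes tested) were called. Cells with macrophage or monocyte markers were left out of the other cells. Fewer cells with a gene's RNA and less RNA per cell cannot be told apart in such sums.

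Cells with interferon-induced RNAs carried more Fcgr1 and Fcgr4 than other cells. The state was set by 13 genes such as Ifit3, Isg15 and Oasl2, and held 38, 21, 15 and 24 cells of replicates 1 to 4 (98 in all), of which 32 held exactly 3 UMIs of the list. Fcgr1 was at 1147, 978, 1442 and 581 CPM in these cells and at 584, 550, 513 and 471 CPM in other cells of the same libraries. It was higher in every library, by the least in replicate 4, whose state value of 581 CPM lay just under the 584 CPM of other cells in replicate 1. The log2 fold change was 0.78 (SE 0.18, adjusted p = 0.0013, edgeR). Fcgr4 was at 96.6, 48.9, 141 and 72.7 CPM against 29.7, 28.0, 13.6 and 20.8 CPM, from 8, 3, 5 and 6 UMIs. The lowest of these state values lay above the highest of the other cells, and the log2 fold change was 1.72 (SE 0.43, adjusted p = 0.0049, edgeR).

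These 2 of the 7 members were called, both higher, against a background of 2.26% of the 9500 genes tested (142 higher and 73 lower, 66% higher). The median log2 fold change of all genes was -0.27 with the TMM scaling used, -0.11 with RLE factors and 0.33 in DESeq2, where the higher genes made up 86.8% of 235 calls and 96.8% of 277. Relative to that median, Fcgr1 was at 1.05, 1.05 and 0.62 and Fcgr4 at 1.99, 1.99 and 1.63. The DESeq2 median was taken without the filter on low counts. It thus covers another set of genes, and the values relative to it cannot be set beside the edgeR ones. The log2 fold changes themselves were 0.95 with RLE factors and 0.95 in DESeq2 for Fcgr1, and 1.88 and 1.96 for Fcgr4. Both calls depended on single libraries. Fcgr1 had an adjusted p of 0.11 without replicate 1 and 0.13 without replicate 3, Fcgr4 had 0.11 without either and 0.088 without replicate 4 (edgeR), while Fcgr1 was at a log2 fold change of 0.89 without replicate 4, so that 0, 0 and 1 members were called without replicates 1, 3 and 4.

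The other members were not called. Fcgr3 was at 1776, 1890, 1442 and 1381 CPM in interferon cells and at 2065, 2379, 2146 and 2078 CPM in other cells, with a log2 fold change of -0.54 (SE 0.18, adjusted p = 0.093, edgeR). Its state values were lower in every library and did not overlap those of the other cells. Fcer1g was at 3889, 3650, 3648 and 4190 CPM against 3237, 3460, 3222 and 3266 CPM, a log2 fold change of 0.10 (adjusted p = 0.91, edgeR). Fcer1g was higher in CPM in every library too, and its log2 fold change was -0.024 without replicate 4. Higher CPM in all 4 libraries was found for 3 members (Fcgr1, Fcgr4 and Fcer1g), against 4.68% of all genes tested, and lower CPM in all 4 for 2 members (Fcgr3 and Syk), against 16% of them.

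Fcgr2b was at 326, 179, 283 and 363 CPM in interferon cells and at 300, 314, 303 and 294 CPM in other cells, the groups overlapping. Fcgrt was at 96.6, 114, 84.8 and 145 CPM against 133, 138, 131 and 129 CPM. Syk was at 60.4, 48.9 and 36.3 CPM in replicates 1, 2 and 4, from 3 to 5 UMIs each, against 65.3, 64.5 and 53.4 CPM. In replicate 3 Syk had 0 UMIs among the interferon cells, which allows up to 84.8 CPM. Log2 fold changes of these 3 genes were -0.16, -0.32 and -0.65 (adjusted p = 0.87, 0.74 and 0.62, edgeR). Without replicate 4 that of Fcgrt was -0.60.

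Of the 98 interferon cells, 12 also passed the macrophage or monocyte cut, 8 of them in replicate 4. The interferon cells had a median of 34.5 UMIs of the microglia list per cell at 1000 UMIs, against 42 in other cells, and a mean of 0.95 UMIs of the monocyte list against 0.020. Without those 12 cells (an alternative chosen after the values were seen), the median of the microglia list was 36.5 UMIs and the monocyte list averaged 0.081. Fcgr1 was then at 1303, 978, 1506 and 726 CPM in replicates 1 to 4, a log2 fold change of 0.87, and Fcgr4 had a log2 fold change of 1.60 (adjusted p = 0.036, edgeR). The Fcgr1 and Fcgr4 differences were thus about as large without these cells. Fcgr3 had a log2 fold change of -0.42 in that fit (adjusted p = 0.0498, edgeR). Over all 13 alternatives its adjusted p went from 0.0495 (no filter on low counts, edgeR) to 0.55 (1 UMI fewer, log2 fold change -0.25, edgeR). Relative to the median of all genes its value was -0.27 in the test as planned, -0.26 with RLE factors and -0.69 in DESeq2. The last is taken against the DESeq2 median of unfiltered genes, and the log2 fold change itself was -0.37 with RLE factors and in DESeq2.

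**Figure D2:**
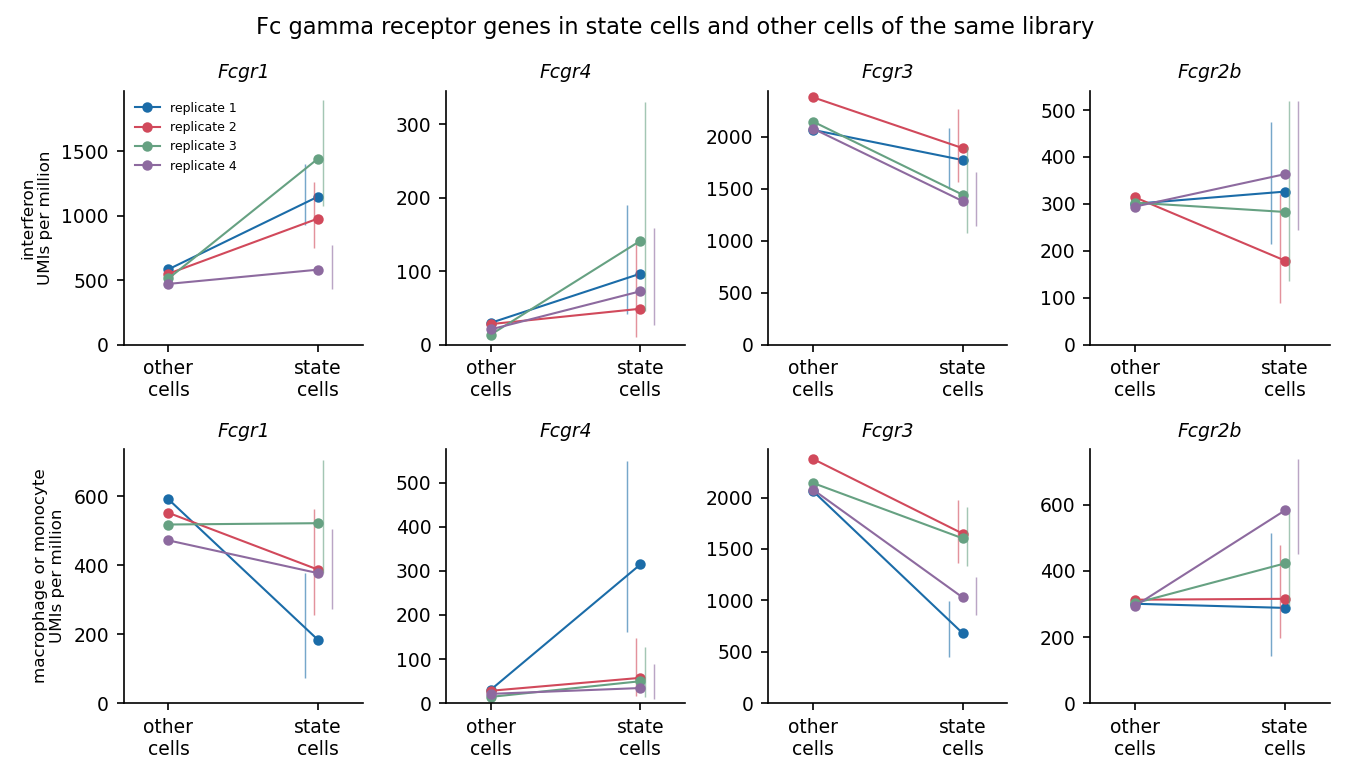
CPM of Fcgr1, Fcgr4, Fcgr3 and Fcgr2b in interferon cells, in macrophage or monocyte cells, and in the other cells of the same library. Values are per library, with exact 95% Poisson intervals for the state cells. In interferon cells Fcgr1 lies at 581 to 1442 CPM, above the 471 to 584 CPM of other cells in each library but overlapping them across libraries in replicate 4. In macrophage or monocyte cells Fcgr3 lies at 681 to 1650 CPM, below 2064 to 2376 CPM.

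Split by how many interferon-list UMIs a cell held, the Fcgr1 difference was carried by the cells with the most. Macrophage and monocyte cells were left out of this split, which is a description without a test. Summed over the libraries, Fcgr1 was at 527 CPM in 11821 cells with 0 list UMIs, 556 in 672 cells with 1, 683 in 92 cells with 2, 684 in 57 cells with 3 to 5 and 1921 in 29 cells with 6 or more (95% Poisson interval 1618 to 2264). In the 29 cells, 13, 9, 4 and 3 from replicates 1 to 4, Fcgr1 was at 1948, 1397, 2845 and 2408 CPM. Every library's value in these cells was above 584 CPM, the highest value of a library in cells with 0 list UMIs.

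Fcgr4 was at 22.7, 38.9, 59.0, 35.2 and 176 CPM over the same 5 classes, the last from few UMIs (interval 93.6 to 301). Fcgr3 was at 2193, 2144, 2166, 1833 and 1921 CPM, and Fcgr2b at 303, 311, 384, 310 and 244 CPM. Neither of these receptors showed the step of Fcgr1. Fcer1g went from 3313 to 3747 CPM between the first and last class, Fcgrt from 133 to 81.2 and Syk from 60.6 to 13.5, the last from 1 UMI.

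**Figure D3:**
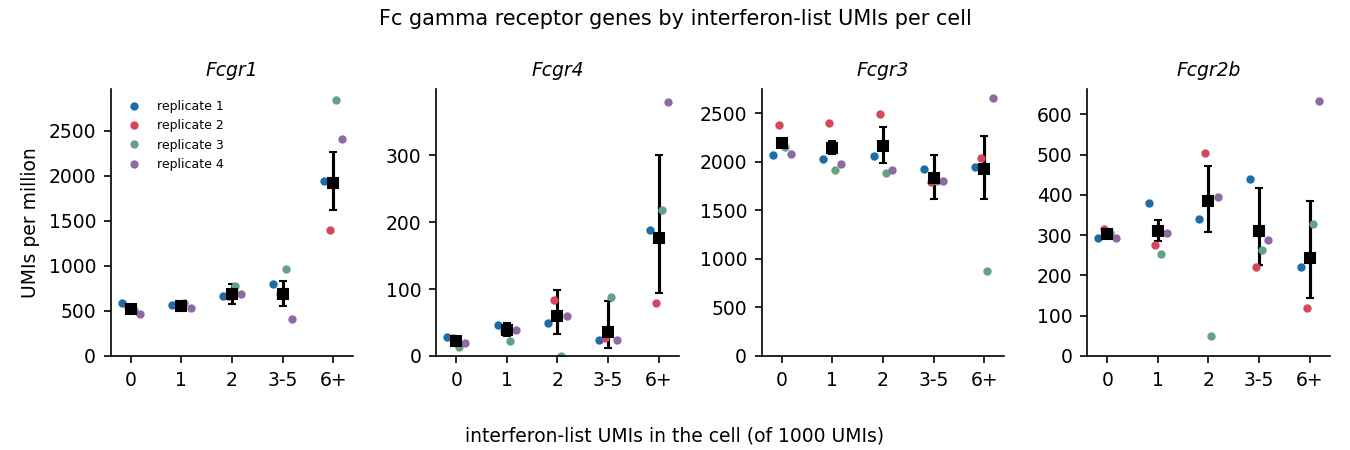
CPM of Fcgr1, Fcgr4, Fcgr3 and Fcgr2b against the number of interferon-list UMIs of a cell at 1000 UMIs. Libraries are points, and the 4 libraries summed are squares with 95% Poisson intervals. Fcgr1 is at 527 to 684 CPM in the first 4 classes and at 1921 CPM in the 29 cells with 6 or more.

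The balance in interferon cells did not differ beyond its spread. The ratio of activating to inhibitory UMIs was 9.03 in the summed interferon cells (95% interval 7.14 to 11.6) and 9.03 in other cells, and the mean within-library log2 difference was 0.078 ± 0.57 (higher in 3 of 4 libraries, exact sign-flip permutation test, two-sided, p = 0.625). This exact test cannot go below p = 0.13 with 4 libraries. For Fcgr3 alone the ratio was 5.49 in interferon cells and 7.21 in other cells, a log2 difference of -0.35 ± 0.56 (exact p = 0.375). In the 29 cells with 6 or more list UMIs the full ratio was 16.5 (10.3 to 28.2), from 18 UMIs of Fcgr2b, and in cells with 0 list UMIs it was 9.06 (8.87 to 9.26).

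Of the 57 pathway genes, 43 could be tested in interferon cells, 0 were called higher and 1 lower. That is about the background share of 2.26% of all genes tested. The gene called lower was Fcrls, with a log2 fold change of -0.86 (SE 0.18, adjusted p = 0.00025, edgeR). B2m, the partner of FcRn, had a log2 fold change of 0.58 (SE 0.18, adjusted p = 0.056, edgeR).

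The few cells with border macrophage or monocyte markers had a different receptor make-up. The state was set by 16 markers such as Mrc1, Pf4 and Plac8, and held 14, 10, 13 and 29 cells (66 in all). These cells had a median of 7 microglia-list UMIs at 1000 UMIs, against 42 in other cells. The state cells had medians of 2291.5, 5700, 5174 and 3133 UMIs in replicates 1 to 4, against 1917, 2940, 2223 and 2813 in other cells. Without the 1% of cells with most UMIs, 11, 5, 5 and 24 state cells remained. Whether some of the state cells were doublets with microglia was not tested. Fcgr3 was at 681, 1650, 1604 and 1029 CPM in them and at 2064, 2376, 2142 and 2077 CPM in other cells. It was lower in every library and the groups did not overlap, with a log2 fold change of -0.97 (SE 0.28, adjusted p = 0.012, edgeR). The adjusted p was 0.055 without replicate 2 and 0.091 without replicate 4. Fcgr4 was at 314, 57.4, 49.7 and 34.3 CPM, from 12, 4, 4 and 4 UMIs, against 30.4, 28.1, 14.2 and 21.1 CPM. Its log2 fold change was 1.76 (SE 0.43, adjusted p = 0.0015, edgeR), and without replicate 1 it was 1.06 (adjusted p = 0.36).

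These 2 of the 7 members were called, against a background of 6.4% of the 9579 genes tested (306 higher and 307 lower, 49.9% higher). The median of all genes was -0.28 with TMM, -0.16 with RLE and 0.33 in DESeq2, with higher genes at 64.2% and 83.8% of calls in the latter pair. Relative to it, Fcgr3 was at -0.69, -0.68 and -1.17 and Fcgr4 at 2.04, 2.06 and 1.5. The DESeq2 median again covered genes without the filter on low counts. The log2 fold change of Fcgr3 itself was -0.84 with RLE factors and in DESeq2. CPM was higher in all 4 libraries for Fcgr4 and Fcer1g, against 7.94% of genes, and lower in all 4 for Fcgr3, against 19.9%.

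Fcgrt was at 105, 273, 236 and 274 CPM in these cells, against 132, 138, 131 and 129 CPM in other cells. It was higher in 3 of 4 libraries, with a log2 fold change of 0.71 (SE 0.26, adjusted p = 0.079, edgeR). The call depended on the setting: the adjusted p was 0.020 with RLE factors, 0.013 without the library block and 0.0042 without replicate 1, and 0.29, 0.28 and 0.62 without replicates 2, 3 and 4. Fcgr1 was at 183, 387, 522 and 377 CPM against 591, 552, 518 and 472 CPM, a log2 fold change of -0.60 (adjusted p = 0.17, edgeR), and Fcgr2b at 288, 316, 423 and 583 CPM against 301, 313, 303 and 295 CPM, 0.32 (adjusted p = 0.54). With 1 UMI fewer for the state, Fcgr1 was called lower, at an adjusted p of 0.0495 (edgeR). Fcer1g and Syk had log2 fold changes of 0.12 and 0.32 (adjusted p = 0.90 and 0.73).

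The balance in macrophage or monocyte cells was 4.09, 6.64, 5.15 and 2.47 in replicates 1 to 4, against 8.93, 9.45, 8.84 and 8.73 in other cells. It was lower in 4 of 4 libraries, by 1.08 ± 0.56 log2 units, and the exact sign-flip permutation test gave p = 0.13, the smallest it can give. Summed over libraries the ratio was 3.96 (3.27 to 4.81) against 9.04. For Fcgr3 alone it was 2.89 against 7.21, a log2 difference of -1.26 ± 0.65.

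By marker list, the cells differed in which receptors they held (a split chosen after the values were seen, with no test). The 34 cells with border macrophage markers were 3, 4, 9 and 18 cells of replicates 1 to 4. Their Fcgr2b was at 511, 360, 423 and 718 CPM, from 4, 18, 28 and 50 UMIs, and their Fcgrt at 256, 340, 287 and 416 CPM. All of these values were above those of the other cells of any library, but those of replicates 1 and 2 rest on 3 and 4 cells. How many of all genes separate in this way was not computed. In the same cells Fcgr3 was at 1022, 2118, 1828 and 1263 CPM and Fcgr4 at 128, 0, 30.2 and 14.4 CPM, from 0 to 2 UMIs, where 0 in replicate 2 allows up to 59.9 CPM.

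The 28 cells with monocyte markers were 11, 5, 4 and 8 cells of replicates 1 to 4, so that their values also rest on few UMIs. They had less Fcgr3, at 593, 464, 563 and 600 CPM, from 18, 7, 8 and 21 UMIs, and Fcgr1 at 132, 199, 352 and 315 CPM. Their Fcgr4 was at 363, 199, 141 and 57.2 CPM, from 2 to 11 UMIs, and their Fcer1g at 4811, 4042, 4852 and 4375 CPM. Fcgr3 and Fcgr1 were below and Fcgr4 and Fcer1g above the other cells of every library. The share of all genes that separate in this way in so few cells was not computed. The ratio of activating to inhibitory UMIs was 3.65 (2.35 to 5.88) in monocyte-marker cells and 4.19 (3.36 to 5.27) in border macrophage-marker cells.

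Of 43 pathway genes tested in macrophage or monocyte cells, 1 was called higher and 2 lower, about the background share of 6.4% of all genes tested. Fgr, a Src-family kinase of blood myeloid cells, had a log2 fold change of 3.90 (SE 0.65, adjusted p = 1.6e-07, edgeR). Fcrls was lower by a log2 fold change of -1.04 (SE 0.29, adjusted p = 0.0079, edgeR) and Vav1 by -0.92 (SE 0.31, adjusted p = 0.042, edgeR).

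**Figure D4:**
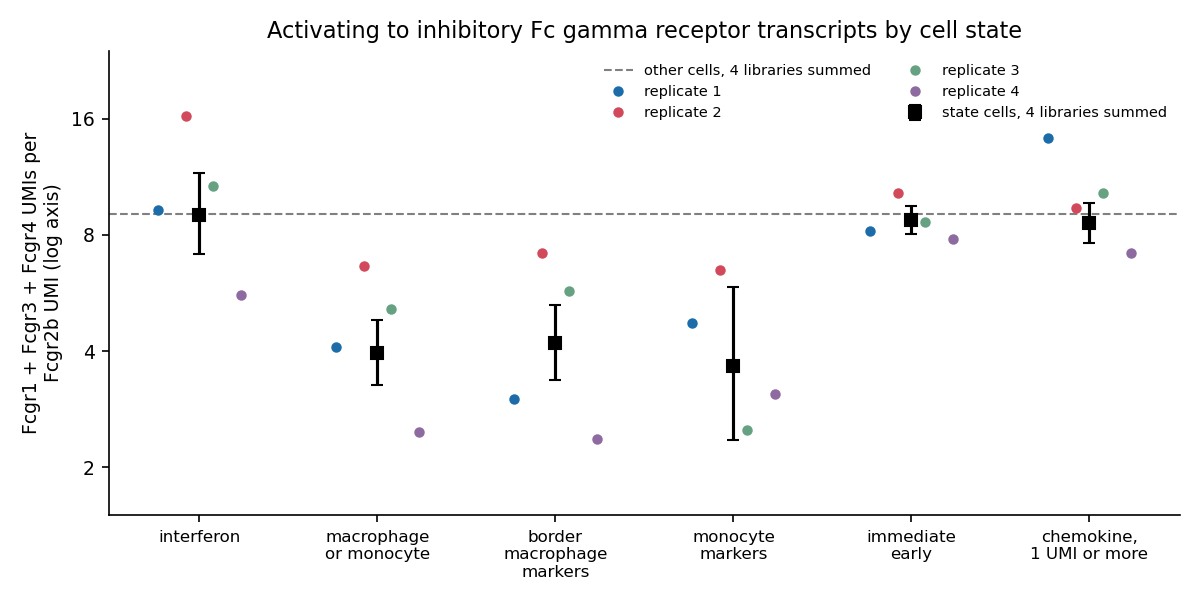
Ratio of activating (Fcgr1, Fcgr3 and Fcgr4) to inhibitory (Fcgr2b) UMIs on a log axis, in the state cells of each library, set against other cells. Macrophage or monocyte cells lie at 2.47 to 6.64, below other cells, whose values computed by library were 8.73 to 9.45. Immediate-early cells lie beside the other cells.

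Immediate-early gene RNA, which differs between the libraries, was not accompanied by a called change in the receptors. The state held 161, 209, 117 and 285 cells (772 in all), of which 467 held exactly the number of UMIs at the cut. That cut was 5 UMIs in place of 3 in replicate 4, so that no more than 10% of cells entered. How many cells entered by counting error was not tested, so that the lack of calls says little about cells rich in these RNAs. Called were 0 of 7 members, against a background of 0.245%, 24 of 9795 genes (515 at an unadjusted p under 0.05), and DESeq2 called 11 genes and 0 members. Fcgr3 was at 1934, 2511, 2088 and 2000 CPM in the state and at 2069, 2369, 2146 and 2089 CPM in other cells, the groups overlapping. Fcgr4 was at 66.4, 39.3, 16.1 and 26.6 CPM against 29.5, 27.5, 14.2 and 20.7 CPM. It was higher in 4 of 4 libraries with a log2 fold change of 0.60 (SE 0.20), an unadjusted p of 0.0063 and an adjusted p of 0.55 (edgeR). Without replicate 4 it was 0.71 (adjusted p = 0.76). The log2 fold changes were -0.077 for Fcgr1, 0.022 for Fcgr2b, -0.033 for Fcgr3, -0.021 for Fcer1g, -0.0060 for Fcgrt and 0.16 for Syk, with adjusted p of 0.97 or more for each. Those of Fcgr1 and Fcgr3 were -0.074 and -0.020 without replicate 4. The ratio of activating to inhibitory UMIs was 8.72 (8.02 to 9.49) against 9.06.

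Nor was a member called in cells with chemokine RNA. With at least 2 UMIs of Ccl3 and Ccl4 there were 6, 7, 14 and 40 cells, too few for the test, and the 380 cells with at least 1 UMI (65, 68, 71 and 176) were tested. Of these, 59, 61, 57 and 136 cells held exactly 1 UMI. How many entered by counting error was not tested, so that a lack of calls says little about cells rich in chemokine RNA. Called were 0 of 7 members, against 0.833%, 81 of 9729 genes, and DESeq2 called 31 genes and 0 members. Fcgr3 was at 2083, 2043, 1935 and 1983 CPM in these cells and at 2063, 2382, 2148 and 2083 CPM in other cells, a log2 fold change of -0.14 (SE 0.053), with an unadjusted p of 0.010 and an adjusted p of 0.40 (edgeR). Fcgr1 was at 566, 424, 400 and 479 CPM against 592, 555, 522 and 472 CPM, -0.19 (SE 0.080), with an unadjusted p of 0.022 and an adjusted p of 0.55. Fcgr2b was at 189, 267, 228 and 345 CPM against 303, 314, 305 and 292 CPM, -0.15 (SE 0.099, adjusted p = 0.99), and was higher only in replicate 4. That library held 176 of the 380 cells, and without it the log2 fold changes were -0.34 for Fcgr1 (adjusted p = 0.059), -0.45 for Fcgr2b (0.067) and -0.18 for Fcgr3 (0.068), none of which was called. Fcgr4, Fcer1g, Fcgrt and Syk had log2 fold changes of 0.15, 0.037, -0.040 and -0.36 with all libraries, and adjusted p of 0.835 or more. Of 43 pathway genes tested, 1 was called, beside the same 0.833% of all genes. The gene called was Was, which encodes the actin regulator WASP, with a log2 fold change of -0.65 (SE 0.18, adjusted p = 0.043, edgeR). The ratio of activating to inhibitory UMIs was 8.58 (7.60 to 9.70) against 9.06.

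Cells with disease-associated microglial genes such as Cst7 were rare and were not tested. There were 5, 7, 5 and 3 of them, with a median of 13.5 microglia-list UMIs against 42, and 7 of the 20 also passed the macrophage or monocyte cut. Fcgr3 was at 850, 970, 902 and 1124 CPM in them and Fcgr1 at 213, 337, 164 and 331 CPM. Both were below the other cells of every library, at 2064 to 2379 and 472 to 592 CPM, and the share of all genes that do so was not computed. Fcer1g was at 4604, 2699, 2297 and 3901 CPM, on both sides of the other cells. The ratio of activating to inhibitory UMIs was 7.82 (4.16 to 16.2), from 11 UMIs of Fcgr2b. Fcgr4, Fcgrt and Syk had 5, 4 and 5 UMIs in all 20 cells. The proliferation cut was passed by 6 cells, with 45 UMIs of Fcer1g, 14 of Fcgr3, 9 of Fcgr1, 2 each of Fcgrt and Syk, 1 of Fcgr2b and 0 of Fcgr4.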

How the data were processed

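Myeloid cells of 4 mice were sorted and captured with 10x Genomics 3′ v2 chemistry. The deposited values are raw UMI counts per gene and cell, which the authors made with Cell Ranger 2.2.0 (bcl2fastq for demultiplexing) on mm10 with a filtered Ensembl 84 annotation, and the deposited tables were not normalized. Members, gene lists and states were chosen with earlier results of these data known. Cells under 400 genes or above 10% mitochondrial UMIs were removed. Doublets were neither called nor removed, and an alternative left out the 1% of cells with most UMIs. Each cell was thinned to 1000 UMIs for states and detection (cells with fewer were left out). Counts were summed per library and state and tested with edgeR 4.0.16 (R 4.3.3; TMM, filterByExpr, library as a block, since both sums come from 1 mouse) where each library held at least 10 state cells, and DESeq2 1.42.0 was an alternative. The other alternatives were no block, RLE factors, no filter, each replicate left out, 1 UMI more or fewer for a state and 2000 UMIs. The scripts were tested on simulated data. There, 18.4% of genes set at a log2 fold change of 1 were recovered for interferon cells. For macrophage or monocyte, immediate-early and chemokine cells the shares were 7.4%, 62.2% and 39.8%. At a log2 fold change of 2 they were 54%, 46.8%, 94.9% and 79.6% in the same order. A gene that was not called is therefore not shown to be unchanged. Named were all 7 members in every comparison, the pathway genes called (at most 4 in each direction) and the 3 genes most like each member. Poisson and binomial (Clopper-Pearson) 95% intervals and the limit at 0 (3 UMIs) cover counting error only. Shared 3′ ends and coordinates came from GENCODE M21, and promoters from RefSeq (GRCm38.p6). Clec7a and Pclaf, of 2 state lists, were not used here because they were not found by symbol.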

Additional observations from a re-analysis of the deposited data

Results flagged for a closer look

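In groups of 4 libraries, 60 values (levels, ratios, list sums and log2 ratios of state to other cells) were examined for 1 library far from the rest by Dixon's range test, and 3 were found, where chance gives about 1 in 20. The ratio of B2m to Fcgrt UMIs was 26.9 in replicate 1 against 24.3, 24.5 and 24.5 in the others (gap over range 0.903), while neither Fcgrt nor B2m alone had a library apart. The summed immediate-early list was higher in replicate 4 on the log2(CPM + 1) scale, at 10.88 against 9.45, 9.65 and 9.41 (0.836), and no member had a library apart with it. The log2 ratio of Syk between chemokine cells and other cells was 0.13 in replicate 1 and -0.37, -0.35 and -0.40 in the others (0.912), from 9 UMIs of Syk in replicate 1.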

How the results depend on the processing

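Mean levels of the members moved by less than 1 SD under all 63 alternatives. Without the 1% of cells with most UMIs, 1 member had a library apart (Fcgrt, replicate 2). Without thinning, 4 members were seen in over 50% of cells. The ratio of activating to inhibitory UMIs was 7.09 with Fcgr3 alone. Among called members, Fcgr1 in interferon cells stayed called under 11 of 13 alternatives (log2 fold change 0.63 to 0.95), Fcgr4 there under 10 of 13 (1.44 to 1.99), Fcgr3 in macrophage or monocyte cells under 8 of 10 (-1.12 to -0.74) and Fcgr4 there under 9 of 10 (1.06 to 2.37). With each replicate left out in turn, 0 to 2 members were called in interferon cells and 1 to 2 in macrophage or monocyte cells, and 246 to 531 genes in the latter, 16 to 48 in immediate-early cells and 40 to 78 in chemokine cells, where the lowest counts were without replicate 4, 1 and 1. In immediate-early cells 0 genes were called without the replicate block, 69 without the filter on low counts, 11 with DESeq2, 40 with 1 UMI fewer and 62 at 2000 UMIs; in chemokine cells 14 without the replicate block and 31 with DESeq2. Without the replicate block Fcgrt was also called in macrophage or monocyte cells (3 members in place of 2), and no other member's call changed. In the same cells 3 members were also called with RLE factors (Fcgrt added) and with 1 UMI fewer (Fcgr1 added). The cause of these differences was not tested. Differences in the activating to inhibitory ratio (log2) changed sign for interferon cells with 1 UMI fewer (-0.19), with Fcgr3 alone (-0.35) and without replicate 2 (-0.14). Without replicate 4 the difference in interferon cells kept its sign and was 0.32. Signs also changed for immediate-early cells with 1 UMI fewer (0.013) or more (0.034), and for chemokine cells with 1 UMI more (-0.18).

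Log2 fold changes that changed sign belonged to members that were not called. In interferon cells they were Fcgr2b (0.0094 with RLE factors, -0.39 to 0.054 with 1 replicate left out, above 0 without replicate 2, 0.24 with 1 UMI fewer, 0.17 at 2000 UMIs), Fcer1g (-0.024 to 0.16 with 1 replicate left out, below 0 without replicate 4, -0.0095 with 1 UMI more, -0.013 without macrophage or monocyte cells, the last chosen after seeing the data) and Fcgrt (0.14 with 1 UMI fewer, 0.23 at 2000 UMIs). In macrophage or monocyte cells it was Fcgr2b (-0.0082 without replicate 4, up to 0.48 without replicate 1). In immediate-early cells they were Fcgr1 (0.041 with 1 UMI fewer), Fcgr2b (-0.016 without the filter, -0.026 to 0.069 with 1 replicate left out, below 0 without replicate 4, -0.0025 and -0.081 with 1 UMI fewer and more, -0.094 at 2000 UMIs) and Fcgrt (0.0010 without the block, 0.0050 with RLE factors, 0.021 with DESeq2, 0.063 and 0.010 without replicates 2 and 4 and -0.073 without replicate 3, 0.12 with 1 UMI more, 0.032 at 2000 UMIs, 0.0082 without the 1% of cells with most UMIs, 0.0092 without macrophage or monocyte cells). In chemokine cells they were Fcgr4 (-0.037 without replicate 2, up to 0.33 without replicate 4), Fcer1g (-0.0051 without the filter) and Fcgrt (0.013 without replicate 1, -0.11 without replicate 4). Tests needed 10 state cells in each library and were not run for the disease-associated and proliferation cells, for chemokine cells at 2 UMIs or more, or for macrophage or monocyte cells at 1 UMI more or without the cells with most UMIs. Depth limits Syk and Fcgr4 most, with 11 and 22 UMIs in all interferon cells.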
